A study of Mus musculus with 24 samples.

Results

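The 44 genes described here encode the main machinery that destroys messenger RNA in the cytoplasm and nucleus, and all 44 were found by exact symbol among the 52323 rows of both the total and the nascent RNA table. They fall into 4 decay systems: 14 deadenylation factors, 9 decapping and 5′-to-3′ decay factors, 14 exosome factors and 7 factors of nonsense-mediated decay (NMD). The study followed RNA amount and new transcription in male germ cells as they entered meiosis. Wild-type NMRI mice, whose spermatogenesis was synchronised by WIN18,446, which blocks the making of retinoic acid, and then by retinoic acid itself, received 2 mg of 5-ethynyl uridine (EU) at 24 days after birth, and testis cells were collected 3 hours later and sorted by ploidy into spermatogonia, preleptotene, leptotene and pachytene spermatocytes. Every group shares this genotype, synchronisation, labelling and age. Total RNA and EU-labelled (nascent) RNA were each measured in 12 libraries: spermatogonia gave 3 (2 animals), preleptotene 1 (1 animal), leptotene 4 (3 animals) and pachytene 4 (2 animals). The animals of the nascent assay carry other identifiers than those of the total assay. Values are in FPKM, fragments scaled to transcript length and to the size of the library, so that levels can be compared between genes of different length.

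A messenger RNA is normally dismantled in steps. The PAN2-PAN3 and CCR4-NOT complexes shorten its poly(A) tail; in CCR4-NOT, CNOT1 is the scaffold, CNOT6 or CNOT6L and CNOT7 or CNOT8 are the catalytic subunits, and adaptors such as BTG4 bring the complex to its targets. The body is then attacked from the 5′ end, after DCP2 and its partners DCP1, EDC3, EDC4, PATL1 and LSM1 have removed the cap, by the exonuclease XRN1, with XRN2 as the nuclear counterpart. From the 3′ end it is degraded by the RNA exosome, whose barrel of EXOSC subunits has lost catalysis and works with EXOSC10, DIS3 or DIS3L, and which in the cytoplasm is fed by the SKI complex of SKIV2L and TTC37. NMD marks transcripts with early stop codons through UPF1, UPF2, UPF3A and UPF3B, the kinase SMG1, and the effectors SMG5 and SMG6. In the male germ line, UPF2 and CNOT7 are known to be needed for fertility, and UPF3B is X-linked, while the X chromosome is silenced at pachytene.

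The 2 members that rose most in pachytene total RNA, Dis3l and Upf3a, and 2 that fell, Patl1 and Dis3, are shown by the 250 bases upstream of a RefSeq start site, so that the regions from which these oppositely moving transcripts start can be read side by side. The windows lie on GRCm38.p6 at chr9:64340774-64341023 on the minus strand (Dis3l), chr8:13785365-13785614 on the plus strand (Upf3a), chr19:11912149-11912398 on the plus strand (Patl1) and chr14:99099771-99100020 on the minus strand (Dis3). The Dis3l window belongs to the first of 2 start sites listed for the gene and lies inside the gene as GENCODE annotates it. Capitals mark matches, on either strand, to the hexamer NAACNG in which the first N is a pyrimidine and the second is T or G, the core site of MYB factors, among them the pachytene regulator A-MYB.
Dis3l: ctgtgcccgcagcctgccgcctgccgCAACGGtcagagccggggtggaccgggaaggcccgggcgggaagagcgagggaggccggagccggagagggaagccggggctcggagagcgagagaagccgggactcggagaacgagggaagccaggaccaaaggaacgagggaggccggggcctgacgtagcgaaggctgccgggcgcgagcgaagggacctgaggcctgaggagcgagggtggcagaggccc
Upf3a: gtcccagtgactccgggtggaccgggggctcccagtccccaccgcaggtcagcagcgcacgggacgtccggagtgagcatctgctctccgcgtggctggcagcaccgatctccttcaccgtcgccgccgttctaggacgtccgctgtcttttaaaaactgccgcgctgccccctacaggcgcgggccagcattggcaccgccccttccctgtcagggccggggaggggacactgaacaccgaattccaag
Patl1: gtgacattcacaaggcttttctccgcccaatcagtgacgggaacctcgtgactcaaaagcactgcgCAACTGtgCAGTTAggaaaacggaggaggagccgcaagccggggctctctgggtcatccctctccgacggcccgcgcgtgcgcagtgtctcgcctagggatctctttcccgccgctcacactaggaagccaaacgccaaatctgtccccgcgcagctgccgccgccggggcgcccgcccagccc
Dis3: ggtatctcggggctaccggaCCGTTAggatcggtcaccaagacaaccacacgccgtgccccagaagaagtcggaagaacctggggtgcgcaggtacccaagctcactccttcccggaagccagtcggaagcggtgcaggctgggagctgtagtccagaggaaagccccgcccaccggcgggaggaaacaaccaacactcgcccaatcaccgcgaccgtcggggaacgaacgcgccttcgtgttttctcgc
Sequences are from RefSeq, in which 37 of the 44 symbols matched a promoter. Cnot1, Cnot7, Dcp2, Exosc4, Exosc9, Lsm1 and Skiv2l were not among them. Dis3l and Dis3 each held 1 match and Patl1 held 2 in a window of 300 bases that ends 50 bases after the start site, while Upf3a held none. Cnot6l, which fell more than Dis3 in total RNA, is not printed, and its first listed window held none either. Over windows of that length, a match was present in 11 of the 37 members (29.7%) and in 28.2% of the 27025 promoters of all genes. Of the members tested below in total RNA, 2 of the 8 matched promoters of genes higher in pachytene than in spermatogonia and 3 of the 5 of lower genes held a match, against 6 of the other 24. The GC content of the printed windows was 72.8% for Dis3l, 67.2% for Upf3a, 64.4% for Patl1 and 63.2% for Dis3.

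The labels were first set against marker genes. In total RNA the summed FPKM of 5 pachytene markers (Piwil1, Adam2, Pgk2, Ldhc and Spata16) was 468 to 883 in the pachytene libraries and 10.6 to 31.0 in spermatogonia. Leptotene library 2 held 432, against 12.5 to 27.2 in the other 3 leptotene libraries, and its nascent counterpart held 133 against 1.22 to 1.41. Libraries were compared by Spearman's rank correlation (rho) across the 19202 genes tested in total RNA, which are not independent replicates. Leptotene library 2 had a rho of 0.874 to 0.904 with the pachytene libraries and 0.528 to 0.569 with the other leptotene libraries. Leptotene library 3 had a rho of 0.739 to 0.853 with spermatogonia, where leptotene libraries 1 and 4 had 0.625 to 0.766. In nascent RNA, 5 meiotic entry and leptotene markers (Stra8, Dmc1, Prdm9, Meiob and Sycp3) summed to 39.6 FPKM in pachytene library 3. The other pachytene libraries held 9.15 to 12.4. In total RNA, 5 markers of undifferentiated spermatogonia summed to 6.49 in pachytene library 3, against 0.796 to 0.999 in the others. The 5S-corrected table that the authors deposited omits leptotene libraries 2 and 3 and pachytene library 3. Comparisons that involve leptotene are therefore also given over the 9 libraries of each assay whose titles that table holds. Spermatogonia contained markers of somatic cells: 5 peritubular and vascular markers summed to 134 to 317 FPKM in total RNA, against 0.245 to 0.742 in pachytene, and 6 Sertoli markers to 81.0 to 111 against 1.52 to 2.36. The part of these somatic cells in the differences below was not tested. In bulk libraries fewer cells of a type and less RNA per cell cannot be told apart. In the nascent libraries spike-in RNA took 5.01% to 76.5% of the summed FPKM, against 2.49% to 8.19% in total RNA, so nascent levels are on an unequal scale, and shares within a library, which do not depend on it, are given where 2 paralogues are compared. In pachytene nascent RNA the spike-in share was 64.9%, 69.1%, 76.5% and 13.1% in libraries 1 to 4, and library 4 had the highest pachytene level of 37 of the 44 members. Over all genes, library 4 also had the most at 1 FPKM or more, 10617 against 8357 to 8960. The count of members is therefore not read as a result about them.

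Between spermatogonia and pachytene, 15 of the 44 members passed limma's test at adjusted p under 0.05 in total RNA. They were 10 that rose, against a background of 23.1% of all 19202 genes tested, and 5 that fell, against 29.7%. The 10 of 44 that rose are 22.7% and the 5 that fell are 11.4% of the members. Btg4, among the 10, passed the level filter through pachytene alone. The members' median difference on the log2(FPKM + 1) scale was 0.33 and that of all genes was -0.14. Restricted to the 9 libraries, 22 members passed, 14 higher against a background of 28.3% and 8 lower against 34.9%, and all 15 were among them. With the animal as a replicate block, 7 members passed, 4 higher against a background of 14.4% and 3 lower against 17.2%. They were Dis3l, Upf3a, Patl1, Upf3b and Exosc8 of the 15, and Cnot7 and Edc3. Per the labels, spermatogonia and pachytene share no animal, so this fit links them only through leptotene. There, library 3 alone shares its animal with pachytene, with libraries 2 and 4. Pachytene libraries 1 and 3 share theirs only with the single preleptotene library and add nothing to the blocked difference. It therefore rests on few libraries and is no pairing of these stages. Without leptotene library 1, which leaves the pachytene-like library alone to represent its animal, 1 rose, against 10.2%, and 2 fell, against 20.9%. Without spermatogonia library 3, 5 rose, against 16.3%, and 3 fell, against 24.2%. With ERCC spike-in scaling, under which the median of all genes moved from -0.14 to 0.37, 17 members rose, against a background of 32.7%, and 4 fell, against 23%.

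**Figure D1:**
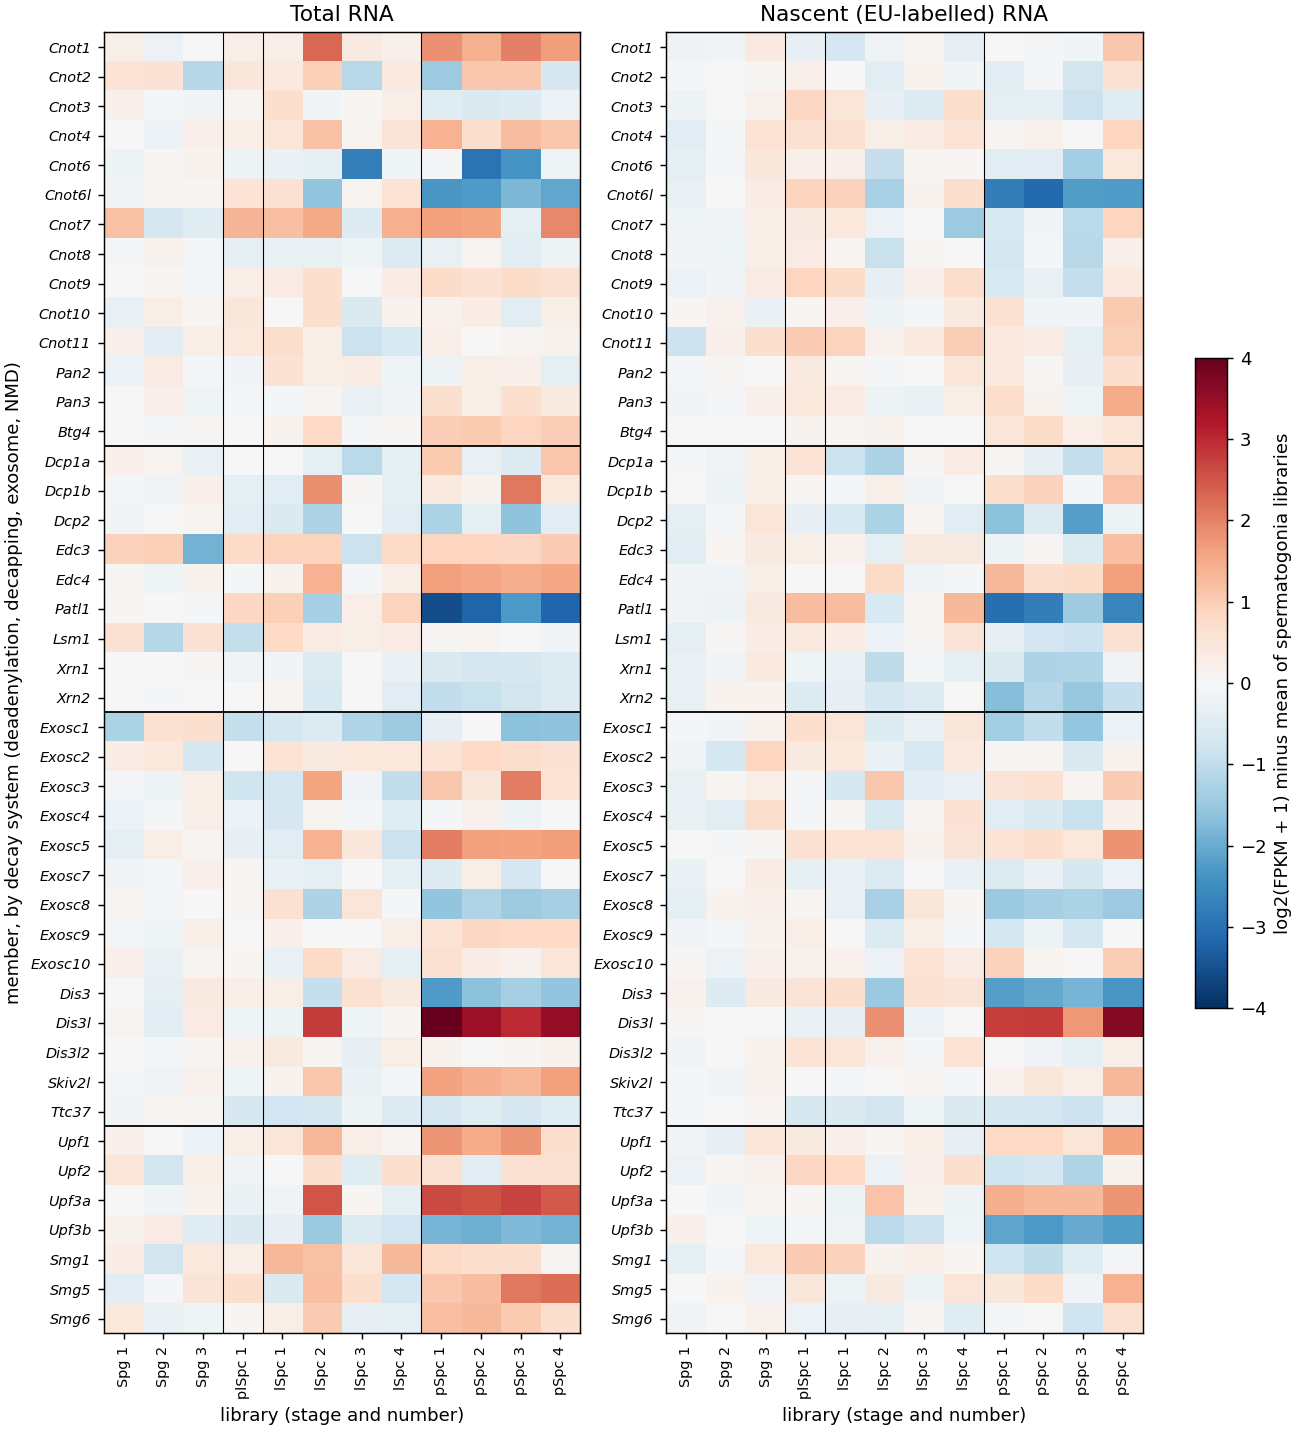
Level of each of the 44 members in each library, as log2(FPKM + 1) minus the mean of the 3 spermatogonia libraries, in total RNA (left) and nascent RNA (right). Rows are grouped by decay system and columns by stage (Spg, spermatogonia; plSpc, preleptotene; lSpc, leptotene; pSpc, pachytene); Dis3l and Upf3a are high and Patl1, Cnot6l, Dis3, Upf3b and Exosc8 low in the 4 pachytene libraries of both assays, and leptotene library 2 resembles pachytene at Dis3l and Upf3a.

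Among the 14 deadenylation factors, Cnot1, Cnot4 and Btg4 rose from spermatogonia to pachytene in total RNA and Cnot6l fell, with a median difference of 0.18 over the system. Cnot1 (chr8:95719451-95807464 on mm10, minus strand) encodes the scaffold on which the CCR4-NOT complex is built. Spermatogonia libraries 1 to 3 held 10.03, 7.01 and 8.203 FPKM of Cnot1, the preleptotene library 10.3, leptotene libraries 1 to 4 10.3, 44.7, 10.99 and 9.699, and pachytene libraries 1 to 4 32.2, 24.2, 37.02 and 28.95. The pachytene libraries lay above all spermatogonia libraries without overlap, and the difference was 1.75 ± 0.43 (SE; adjusted p = 0.00898). Its nascent level was 10.6 to 16.2 FPKM in spermatogonia, 9.69 in preleptotene, 7.42 to 13.5 in leptotene and 11.6 to 27.6 in pachytene, and the difference was 0.13 ± 0.46 (SE; adjusted p = 0.844). An exon of Cnot1 overlaps the opposite-strand gene 4930513N10Rik. Cnot4, which encodes a ubiquitin ligase that associates with the complex, lies at chr6:35022065-35133724. Cnot4 measured 3.41, 2.74 and 4.09 FPKM in the 3 spermatogonia libraries, 4.25 in preleptotene, 5.06, 8.86, 3.77 and 5.24 in the 4 leptotene libraries and 10.5, 6.199, 9.38 and 8.31 in the 4 pachytene libraries, in library order. All 4 pachytene values exceeded the 3 of spermatogonia, by 1.06 ± 0.37 (SE; adjusted p = 0.0381). Btg4 (chr9:51060901-51119875) encodes an adaptor best known for clearing maternal messages in the egg. Btg4 was at 0.0583, 0 and 0.08798 FPKM in spermatogonia, 0.0313 in preleptotene, 0.147, 0.817, 0 and 0.0823 in leptotene and 1.095, 1.17, 0.906 and 1.07 in pachytene libraries. The difference was 0.96 ± 0.22 (SE; adjusted p = 0.00683). Btg4 passed the level filter in total RNA through pachytene alone, so that a difference was bound to appear there, and it did not pass in nascent RNA, where its pachytene values were 0.193 to 0.672 FPKM.

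Cnot6 and Cnot6l encode alternative catalytic subunits of the CCR4 type. Cnot6l, at chr5:96070333-96164171, fell. For Cnot6l the total RNA values in library order were 12.6, 14.8 and 14.7 FPKM in spermatogonia, 21.1 in preleptotene, 22.1, 4.05, 15.03 and 20.9 in leptotene and 1.99, 2.13, 3.36 and 2.58 in pachytene. Levels were highest in preleptotene and in leptotene libraries 1 and 4 and lowest in the 4 pachytene libraries. Against spermatogonia the difference was -2.13 ± 0.40 (SE; adjusted p = 0.00266), and the nascent difference was -2.67 ± 0.46 (SE; adjusted p = 0.00105). Its partner Cnot6 gave no steady level within a stage. Total RNA of Cnot6 was 14.7, 18.2 and 18.8 FPKM in spermatogonia libraries 1 to 3, 14.6 in preleptotene, 13.96, 13.3, 1.73 and 15.1 in leptotene libraries 1 to 4, and 16.5, 1.34, 2.51 and 15.2 in pachytene libraries 1 to 4. Pachytene libraries 1 and 3 come from the same animal and stage, as do libraries 2 and 4, and differed 6.55-fold and 11.4-fold in Cnot6. The difference from spermatogonia was -1.42 ± 0.76 (SE; adjusted p = 0.149). In nascent RNA, Cnot6 differed by less than 3-fold between libraries of the same animal and stage, and there Cnot6l made up 44.2% to 48.9% of Cnot6 plus Cnot6l in spermatogonia, 59.3% in preleptotene, 60.0% and 57.7% in leptotene libraries 1 and 4, and 7.85% to 29.7% in pachytene.

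The CAF1-type subunits Cnot7 and Cnot8 did not pass in pachytene against spermatogonia with all libraries. Spermatogonia libraries 1 to 3 held 10.2, 2.08 and 2.53 FPKM of Cnot7, the preleptotene library 11.8, leptotene libraries 1 to 4 10.5, 13.3, 2.45 and 12.4, and pachytene libraries 1 to 4 14.4, 13.98, 2.801 and 17.97. Cnot7 therefore fell into a low and a high band within each stage, and spermatogonia libraries 1 and 2, from the same animal, stood on opposite sides; the difference was 1.32 ± 0.70 (SE; adjusted p = 0.142). Over the 9 libraries, Cnot7 passed, at 1.82 ± 0.29 (SE; adjusted p = 0.00294). That set leaves out pachytene library 3, the only pachytene library in the low band, at 2.801 FPKM. Cnot8 was at 6.04, 7.26 and 6.15 FPKM in spermatogonia, 4.76 in preleptotene, 5.05, 5.11, 5.69 and 4.14 in leptotene and 5.03, 6.97, 4.46 and 5.51 in pachytene libraries. The difference of Cnot8 was -0.20 ± 0.33 (SE; adjusted p = 0.635). Cnot9, a conserved subunit that binds adaptors of the complex, was the most abundant uncalled deadenylation factor. Cnot9 was at 21.1, 22.5 and 20.6 FPKM in spermatogonia, 25.7 in preleptotene, 26.8, 33.8, 21.6 and 26.7 in leptotene and 35.9, 32.7, 36.2 and 32.9 in pachytene libraries. Its pachytene levels exceeded those of spermatogonia, at 0.67 ± 0.34 (SE; adjusted p = 0.13), and it passed over the 9 libraries, at 0.67 ± 0.18 (SE; adjusted p = 0.0216). The remaining factors Cnot2, Cnot3, Cnot10, Cnot11, Pan2 and Pan3 differed by -0.42 to 0.52 and did not pass.

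In the decapping branch, 1 of 9 members rose from spermatogonia to pachytene in total RNA and 1 fell, and the median difference was -0.13. The fall of Patl1 was the largest among all 44 members. Patl1 (chr19:11912399-11945091) encodes a scaffold that links deadenylated messages to the decapping enzyme. Patl1 measured 14.7, 13.6 and 13.5 FPKM in the 3 spermatogonia libraries, 25.3 in preleptotene, 27.8, 4.99, 16.8 and 26.6 in the 4 leptotene libraries and 0.266, 0.615, 2.05 and 0.653 in the 4 pachytene libraries, in library order. Its level was thus highest in preleptotene and in leptotene libraries 1 and 4, intermediate in spermatogonia, and lowest in pachytene. The pachytene difference was -3.05 ± 0.41 (SE; adjusted p = 0.00109) against spermatogonia and -3.38 ± 0.37 (SE; adjusted p = 0.00312) against leptotene. Nascent Patl1 showed the same order: 11.1 to 16.8 FPKM in spermatogonia, 32.1 in preleptotene, 8.15 to 33.7 in leptotene and 0.735 to 4.23 in pachytene. Its nascent differences were -2.55 ± 0.51 (SE; adjusted p = 0.00238) against spermatogonia and -3.04 ± 0.47 (SE; adjusted p = 0.00106) against leptotene.

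Edc4 (chr8:105880881-105894908), the large scaffold that activates DCP2, rose. For Edc4 the total RNA values in library order were 9.32, 7.86 and 9.89 FPKM in spermatogonia, 8.52 in preleptotene, 9.93, 25.1, 8.58 and 11.03 in leptotene and 30.1, 28.5, 26.5 and 27.9 in pachytene. The 4 pachytene libraries held 26.5 to 30.1 FPKM and did not overlap with spermatogonia, at 1.52 ± 0.38 (SE; adjusted p = 0.00898). The nascent values were higher in pachytene as well, with 6.62 to 8.84 FPKM in spermatogonia, 7.46 in preleptotene, 6.51 to 13.2 in leptotene and 12.4 to 24.9 in pachytene, but did not pass, at 1.03 ± 0.43 (SE; adjusted p = 0.0756). Exons of Edc4 overlap those of Nrn1l on the same strand, so their reads may not be separable. The decapping enzyme Dcp2 itself did not pass. Dcp2 was at 8.602, 9.23 and 10.2 FPKM in spermatogonia, 6.53 in preleptotene, 5.94, 3.39, 9.16 and 6.63 in leptotene and 3.29, 6.92, 2.400 and 6.71 in pachytene libraries. Its difference was -0.95 ± 0.45 (SE; adjusted p = 0.106). Edc3, an enhancer of decapping, was at 11.7 to 14.0 FPKM in 10 libraries and low in the other 2. Total RNA of Edc3 was 13.1, 13.7 and 1.05 FPKM in spermatogonia libraries 1 to 3, 11.7 in preleptotene, 12.96, 13.01, 3.11 and 11.8 in leptotene libraries 1 to 4, and 12.5, 12.7, 12.4 and 14.03 in pachytene libraries 1 to 4. The low libraries were spermatogonia 3 and leptotene 3, and the difference was 1.36 ± 0.88 (SE; adjusted p = 0.224).

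The paralogues Dcp1a and Dcp1b, which encode the cofactor of DCP2, differed between libraries of the same stage. Spermatogonia libraries 1 to 3 held 2.66, 2.41 and 1.57 FPKM of Dcp1a, the preleptotene library 2.24, leptotene libraries 1 to 4 2.17, 1.47, 0.499 and 1.43, and pachytene libraries 1 to 4 5.57, 1.603, 1.21 and 5.87. In pachytene Dcp1a was high in libraries 1 and 4, and Dcp1b was high in library 3. Dcp1b measured 1.45, 1.36 and 2.02 FPKM in the 3 spermatogonia libraries, 0.968 in preleptotene, 0.915, 8.36, 1.68 and 0.959 in the 4 leptotene libraries and 2.38, 1.85, 10.2 and 2.49 in the 4 pachytene libraries, in library order. Neither passed, at 0.41 ± 0.37 (SE; adjusted p = 0.382) and 0.71 ± 0.46 (SE; adjusted p = 0.223). In nascent RNA, the share of Dcp1b in Dcp1a plus Dcp1b was 9.01% to 12.9% in spermatogonia and 20.3% to 33.0% in pachytene, and these ranges did not overlap. Lsm1, part of the ring that binds shortened tails, ranged from 1.38 to 8.21 FPKM and differed by -0.13 ± 0.37 (SE; adjusted p = 0.79).

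Of the 5′ exonuclease genes, cytoplasmic Xrn1 differed by -0.62 ± 0.30 (SE; adjusted p = 0.115) in total RNA. Xrn1 was at 3.49, 3.43 and 3.65 FPKM in spermatogonia, 3.06 in preleptotene, 3.23, 2.08, 3.52 and 2.73 in leptotene and 2.01, 1.81, 1.895 and 2.15 in pachytene libraries. The nuclear Xrn2 (chr2:147012996-147078000) fell in nascent RNA, at -1.35 ± 0.42 (SE; adjusted p = 0.0236), and did not pass in total RNA, at -0.79 ± 0.32 (SE; adjusted p = 0.0672). Xrn2 was at 5.95, 5.601 and 5.92 FPKM in spermatogonia, 5.75 in preleptotene, 6.36, 3.49, 5.798 and 3.99 in leptotene and 2.47, 2.68, 3.08 and 3.77 in pachytene libraries. Nascent Xrn2 was 3.72 to 5.37 FPKM in spermatogonia, 2.999 in preleptotene, 2.54 to 4.84 in leptotene and 0.776 to 2.01 in pachytene. Its pachytene and spermatogonia libraries did not overlap in either assay. Xrn1 made up 37.0% to 38.1% of Xrn1 plus Xrn2 in spermatogonia total RNA and 36.3% to 44.8% in pachytene. In nascent RNA the Xrn1 share was 43.3% to 53.9% in spermatogonia and 45.1% to 77.5% in pachytene, and these ranges overlapped.

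Of the 14 exosome genes, Dis3l, Exosc5 and Skiv2l rose from spermatogonia to pachytene in total RNA and Dis3 and Exosc8 fell, with a median difference of 0.22. The summed FPKM of the system was 46.1, 49.6 and 61.0 in spermatogonia and 139, 111, 104 and 112 in pachytene libraries 1 to 4. Dis3l alone accounted for 29.5 to 63.8 FPKM of the pachytene sums. Dis3l (chr9:64306756-64341288) encodes the cytoplasmic catalytic subunit of the exosome. For Dis3l the total RNA values in library order were 3.08, 1.85 and 3.75 FPKM in spermatogonia, 2.35 in preleptotene, 2.29, 25.4, 2.402 and 2.94 in leptotene and 63.8, 40.1, 29.5 and 42.9 in pachytene. Pachytene libraries were all above 29, leptotene library 2 stood at 25.4, and the other 7 libraries were below 4 FPKM. The rise, 3.43 ± 0.50 (SE; adjusted p = 0.00123), was the largest among the members, and it was 3.12 ± 0.46 (SE; adjusted p = 0.00315) against leptotene. In nascent RNA it was 0.872 to 0.977 FPKM in spermatogonia, 0.589 in preleptotene, 0.518 to 5.85 in leptotene and 5.37 to 23.6 in pachytene, a difference of 2.75 ± 0.48 (SE; adjusted p = 0.00112) against spermatogonia.

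Dis3, which encodes the mainly nuclear catalytic subunit, went down over the same stages. The gene lies at chr14:99075206-99099770, and an exon overlaps Pibf1 on the opposite strand. Total RNA of Dis3 was 7.72, 5.703 and 10.1 FPKM in spermatogonia libraries 1 to 3, 9.504 in preleptotene, 9.19, 3.54, 12.2 and 10.1 in leptotene libraries 1 to 4, and 0.7795, 1.78, 2.42 and 1.87 in pachytene libraries 1 to 4. The difference was -1.80 ± 0.41 (SE; adjusted p = 0.00619) in total RNA and -2.19 ± 0.47 (SE; adjusted p = 0.00313) in nascent RNA, where the pachytene values were 0.0884, 0.211 and 0.390 FPKM in libraries 1 to 3 and a listed 0 in library 4. Dis3l2, a related nuclease that acts outside the exosome on uridylated RNA, stayed low in every library. Dis3l2 was at 1.03, 0.8797 and 1.06 FPKM in spermatogonia, 1.22 in preleptotene, 1.53, 1.14, 0.574 and 1.33 in leptotene and 1.19, 0.985, 1.104 and 1.18 in pachytene libraries. It differed by 0.08 ± 0.29 (SE; adjusted p = 0.844). Of the summed FPKM of these 3 paralogues in total RNA, Dis3l made up 22.0% to 26.0% in spermatogonia, 18.0% in preleptotene, 15.8% to 20.4% in leptotene libraries 1, 3 and 4, 84.5% in leptotene library 2, and 89.3% to 97.0% in pachytene. In nascent RNA its share was 12.6% to 22.0% in spermatogonia, 6.04% to 10.6% in leptotene libraries 1, 3 and 4, 78.2% in leptotene library 2, and 89.4% to 96.3% in pachytene. With 2 animals in each of these stages, an exact permutation test of a share cannot go below p = 0.333, and none was made.

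**Figure D2:**
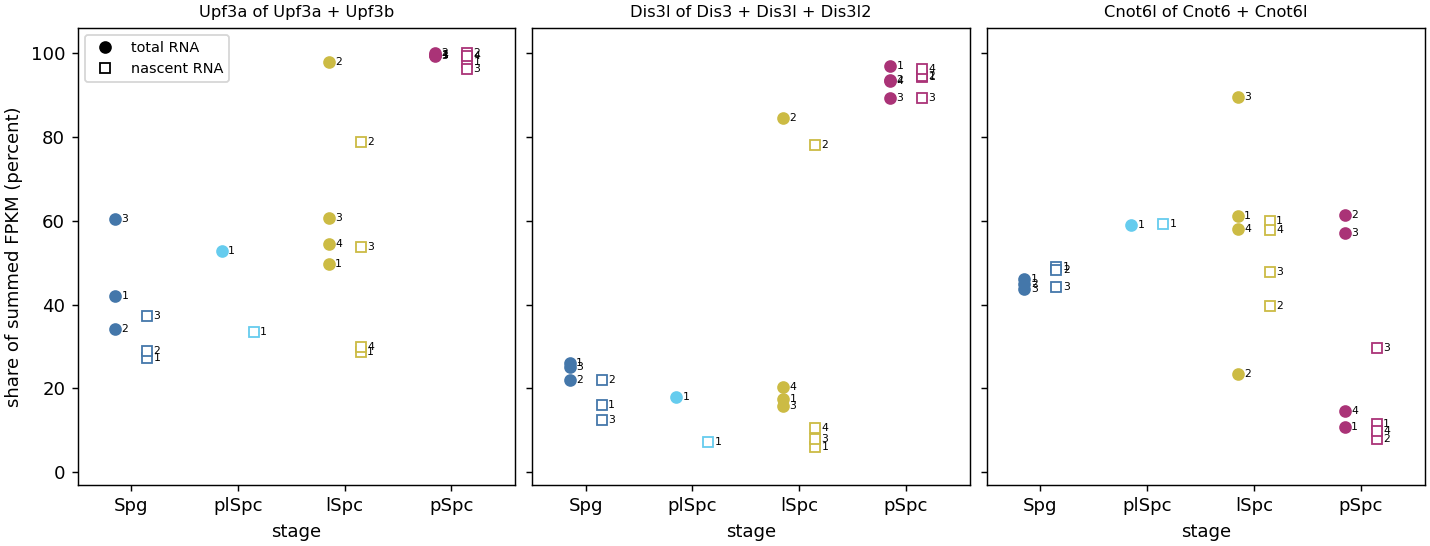
Share of a paralogue in the summed FPKM of its group, in percent, for each library by stage (filled circles, total RNA; open squares, nascent RNA; small numerals, library numbers). The Dis3l and Upf3a shares are above 89% in all pachytene libraries of both assays and in total RNA below 61% in all others except leptotene library 2, while the Cnot6l share in pachytene spans 10.8% to 61.4% in total and 7.85% to 29.7% in nascent RNA.

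Exosc5 and Exosc8 encode barrel subunits of the exosome. Exosc5 (chr7:25659164-25671368) rose. Spermatogonia libraries 1 to 3 held 2.17, 3.84 and 3.34 FPKM of Exosc5, the preleptotene library 2.24, leptotene libraries 1 to 4 1.98, 9.59, 4.55 and 1.25, and pachytene libraries 1 to 4 15.8, 11.6, 11.3 and 11.8. The pachytene libraries were 2.48-fold or more above the highest leptotene library outside library 2, and the difference from spermatogonia was 1.71 ± 0.47 (SE; adjusted p = 0.0146). In nascent RNA it was 0.84 ± 0.34 (SE; adjusted p = 0.07), and exons of the gene overlap Tmem91 on the opposite strand. Exosc8 (chr3:54728678-54735393), whose exons overlap those of Supt20, fell. Exosc8 measured 3.23, 2.67 and 2.82 FPKM in the 3 spermatogonia libraries, 3.03 in preleptotene, 4.95, 0.654, 4.43 and 2.71 in the 4 leptotene libraries and 0.293, 0.704, 0.468 and 0.557 in the 4 pachytene libraries, in library order. The pachytene libraries were all below 0.71 FPKM and the spermatogonia libraries all above 2.6, a difference of -1.37 ± 0.35 (SE; adjusted p = 0.00965). Its nascent difference was -1.43 ± 0.45 (SE; adjusted p = 0.0227). Exosc3 and Exosc4 were the most abundant subunits that did not pass. For Exosc3 the total RNA values in library order were 3.81, 3.41 and 5.13 FPKM in spermatogonia, 1.92 in preleptotene, 2.12, 14.1, 3.59 and 1.56 in leptotene and 9.62, 6.01, 20.00 and 6.43 in pachytene. The Exosc3 difference was 0.97 ± 0.53 (SE; adjusted p = 0.156). Exosc4 was at 5.81, 6.76 and 8.66 FPKM in spermatogonia, 5.86 in preleptotene, 4.05, 7.69, 6.68 and 4.68 in leptotene and 6.72, 7.97, 5.93 and 7.09 in pachytene libraries. For Exosc4 it was -0.09 ± 0.34 (SE; adjusted p = 0.848).

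The other barrel and cap genes Exosc1, Exosc2, Exosc7 and Exosc9 and the nuclease gene Exosc10 did not pass, with differences of -1.05 to 0.83. Of the SKI complex, which threads RNA into the cytoplasmic exosome, the helicase gene Skiv2l (chr17:34839228-34850210) rose. Total RNA of Skiv2l was 6.75, 6.37 and 8.13 FPKM in spermatogonia libraries 1 to 3, 6.14 in preleptotene, 7.78, 16.3, 5.71 and 6.58 in leptotene libraries 1 to 4, and 23.8, 21.1, 19.2 and 24.2 in pachytene libraries 1 to 4. All pachytene libraries exceeded 19 FPKM, and the difference was 1.47 ± 0.39 (SE; adjusted p = 0.0122). In nascent RNA it was 0.52 ± 0.42 (SE; adjusted p = 0.362). Exons of Skiv2l overlap Dxo on the opposite strand, and a pseudogene Skiv2l-ps1 may share its reads. Its partner Ttc37, which holds the complex together, did not pass. Ttc37 was at 0.934, 1.19 and 1.15 FPKM in spermatogonia, 0.328 in preleptotene, 0.239, 0.291, 0.809 and 0.427 in leptotene and 0.321, 0.484, 0.307 and 0.506 in pachytene libraries. Its difference was -0.59 ± 0.25 (SE; adjusted p = 0.0731) with all libraries, and it was lower over the 9 libraries at -0.58 ± 0.16 (SE; adjusted p = 0.0204).

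Of the 7 NMD factors, Upf1, Upf3a and Smg5 rose from spermatogonia to pachytene in total RNA and Upf3b fell, and the median difference of 1.08 was the highest among the 4 systems. Upf1 (chr8:70331525-70353278) encodes the central helicase of NMD. Spermatogonia libraries 1 to 3 held 14.8, 12.8 and 10.7 FPKM of Upf1, the preleptotene library 15.3, leptotene libraries 1 to 4 17.98, 33.5, 15.5 and 13.7, and pachytene libraries 1 to 4 45.2, 37.2, 45.3 and 20.9. Library 4 was the lowest of pachytene, at 20.9, still above the highest spermatogonia library at 14.8, and the difference was 1.48 ± 0.42 (SE; adjusted p = 0.0166). Nascent Upf1 was 11.6 to 21.3 FPKM in spermatogonia, 19.4 in preleptotene, 11.8 to 17.7 in leptotene and 21.1 to 46.5 in pachytene, and the difference did not pass, at 0.78 ± 0.48 (SE; adjusted p = 0.215). Exons of Upf1 overlap Cers1 and Gdf1 on the opposite strand. Smg5 (chr3:88336260-88362338), an adaptor that brings decay enzymes to UPF1, varied between libraries of the same stage. Smg5 measured 3.67, 4.99 and 8.13 FPKM in the 3 spermatogonia libraries, 9.07 in preleptotene, 3.21, 13.6, 9.18 and 2.88 in the 4 leptotene libraries and 12.4, 13.9, 26.5 and 28.7 in the 4 pachytene libraries, in library order. The pachytene libraries differed within both animals, 1 from 3 and 2 from 4, and all 4 exceeded spermatogonia, by 1.53 ± 0.50 (SE; adjusted p = 0.03). Smg6, the endonuclease of NMD, did not pass. For Smg6 the total RNA values in library order were 13.1, 7.76 and 8.298 FPKM in spermatogonia, 9.88 in preleptotene, 11.3, 20.04, 7.26 and 7.18 in leptotene and 23.04, 24.6, 20.4 and 15.3 in pachytene. Its difference was 1.08 ± 0.42 (SE; adjusted p = 0.0558), with pachytene above spermatogonia in every library, and it passed over the 9 libraries at 1.13 ± 0.27 (SE; adjusted p = 0.0133).

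The UPF3 paralogues Upf3a and Upf3b encode proteins that bridge UPF2 to the exon junction. Upf3a (chr8:13785615-13799193) rose. Total RNA of Upf3a was 2.42, 2.03 and 2.72 FPKM in spermatogonia libraries 1 to 3, 1.79 in preleptotene, 2.08, 18.5, 2.597 and 1.57 in leptotene libraries 1 to 4, and 20.2, 18.8, 21.2 and 17.7 in pachytene libraries 1 to 4. The 4 pachytene libraries and leptotene library 2 were at 17.7 to 21.2 FPKM and all others below 3. The difference was 2.56 ± 0.50 (SE; adjusted p = 0.00303) in total RNA and 1.44 ± 0.41 (SE; adjusted p = 0.0147) in nascent RNA. Upf3b (chrX:37091678-37110322), the only X-linked member, fell. Spermatogonia libraries 1 to 3 held 3.33, 3.91 and 1.78 FPKM of Upf3b, the preleptotene library 1.59, leptotene libraries 1 to 4 2.102, 0.397, 1.68 and 1.31, and pachytene libraries 1 to 4 0.0633, 0, 0.134 and 0.0496. It was near or at a listed 0 in all pachytene libraries, at -1.75 ± 0.32 (SE; adjusted p = 0.0023), and the nascent difference was -2.11 ± 0.40 (SE; adjusted p = 0.00168). In total RNA, Upf3a made up 34.2% to 60.5% of Upf3a plus Upf3b in spermatogonia and 99.4% or more in pachytene. In nascent RNA it made up 27.2% to 37.4% in spermatogonia and 96.2% or more in pachytene. The share in leptotene library 2 was 97.9% in total and 78.9% in nascent RNA, against 49.7% to 60.7% and 28.6% to 53.7% in the other leptotene libraries.

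Smg1 encodes the kinase that phosphorylates UPF1. Smg1 measured 9.97, 4.38 and 11.1 FPKM in the 3 spermatogonia libraries, 9.42 in preleptotene, 21.6, 19.00, 11.6 and 21.1 in the 4 leptotene libraries and 14.1, 13.03, 13.1 and 8.66 in the 4 pachytene libraries, in library order. It was highest in leptotene libraries 1, 2 and 4, and pachytene differed from spermatogonia by 0.44 ± 0.42 (SE; adjusted p = 0.408). Upf2, which joins UPF1 to UPF3, differed by 0.28 ± 0.45 (SE; adjusted p = 0.628), with 7.08 FPKM in pachytene library 2 and 15.5 to 15.8 in the other 3. The NMD genes together summed to 61.6, 41.3 and 54.8 FPKM in spermatogonia and to 131, 115, 143 and 107 in pachytene. The decapping sums were 54.7 to 66.2 FPKM in spermatogonia and 61.4 to 67.5 in pachytene, and those of deadenylation were 102 to 112 and 128 to 146. The sums of NMD, exosome and deadenylation members did not overlap between these stages, while those of decapping did. Cnot1 alone accounted for 7.01 to 10.03 FPKM of the deadenylation sums in spermatogonia and 24.2 to 37.02 in pachytene. Without Cnot1 the deadenylation sums of these stages would overlap.

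**Figure D3:**
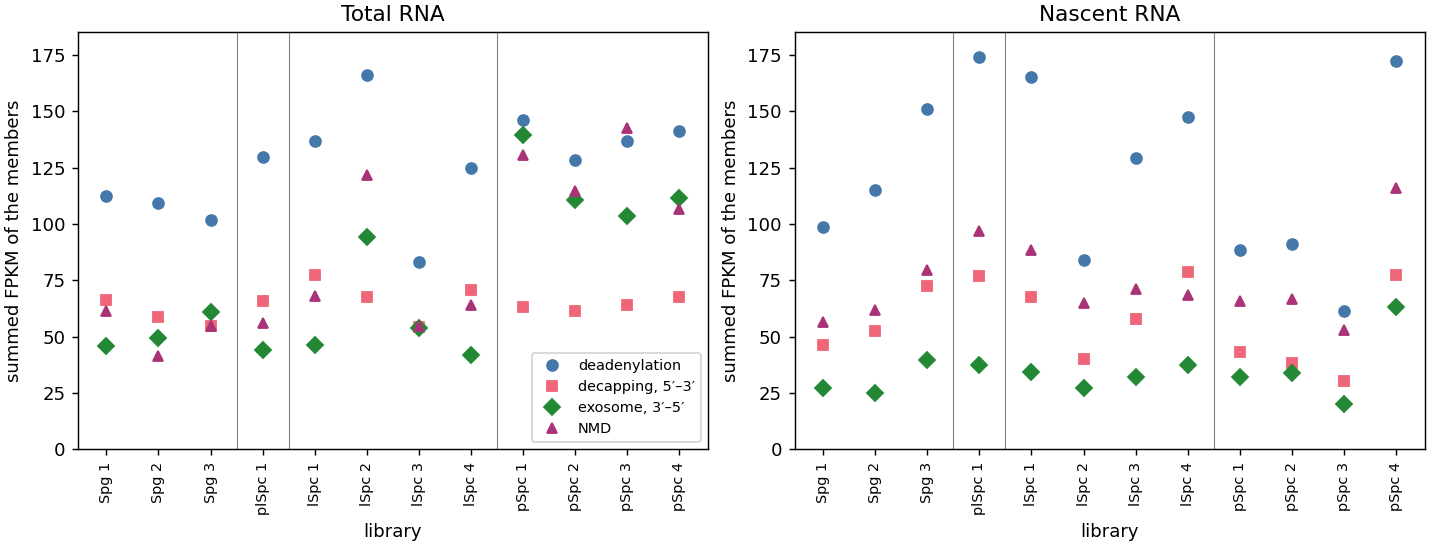
Summed FPKM of the members of each decay system in each library of total RNA (left) and nascent RNA (right); each point is 1 library, ordered by stage. In total RNA the exosome and NMD sums are 104 to 143 in pachytene and below 62 in spermatogonia; in nascent RNA pachytene library 4 stands above the other pachytene libraries in every system.

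In nascent RNA, 41 members could be tested; Btg4, Exosc7 and Ttc37 did not pass the level filter. From spermatogonia to pachytene 8 of the 41 passed, of which 2 rose, against a background of 15.6% of 16375 genes, and 6 fell, against 27.9%. Those that rose were Dis3l and Upf3a, and those that fell were Cnot6l, Patl1, Dis3, Upf3b, Exosc8 and Xrn2. All except Xrn2 were called in the same direction in total RNA. The system medians were -0.18 for deadenylation, -0.40 for decapping, -0.20 for the exosome and -0.12 for NMD, beside -0.39 over all genes tested. Restricted to the 9 libraries, 12 members passed, of which 5 rose, against a background of 20.7%, and 7 fell, against 34%. The 8 above were among them, and Edc4, Exosc5, Dcp1b and Exosc1 were added. With the animal as a replicate block 1 rose, Dis3l, against 13.7%, and 2 fell, Dis3 and Exosc8, against 18.1%. Here too that fit linked pachytene to spermatogonia only through leptotene library 3. Without spermatogonia library 3, 1 rose, against 12.1%, and 4 fell, against 17.2%, and without leptotene library 1, 1 rose, against 12.9%, and 4 fell, against 22.5%. The nascent calls depended on scaling. With each library centred on its median, which moved the median of all genes to 0.07, 8 rose, against 22.4%, and 4 fell, against 18.2%. With ERCC spike-in scaling, which moved it to -1.21, limma called 0 members and 0% of all genes, and 0 members were at an unadjusted p under 0.05. The 5S-corrected table gave 3 that rose, against 18.3%, and 5 that fell, against 22.6%.

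**Figure D4:**
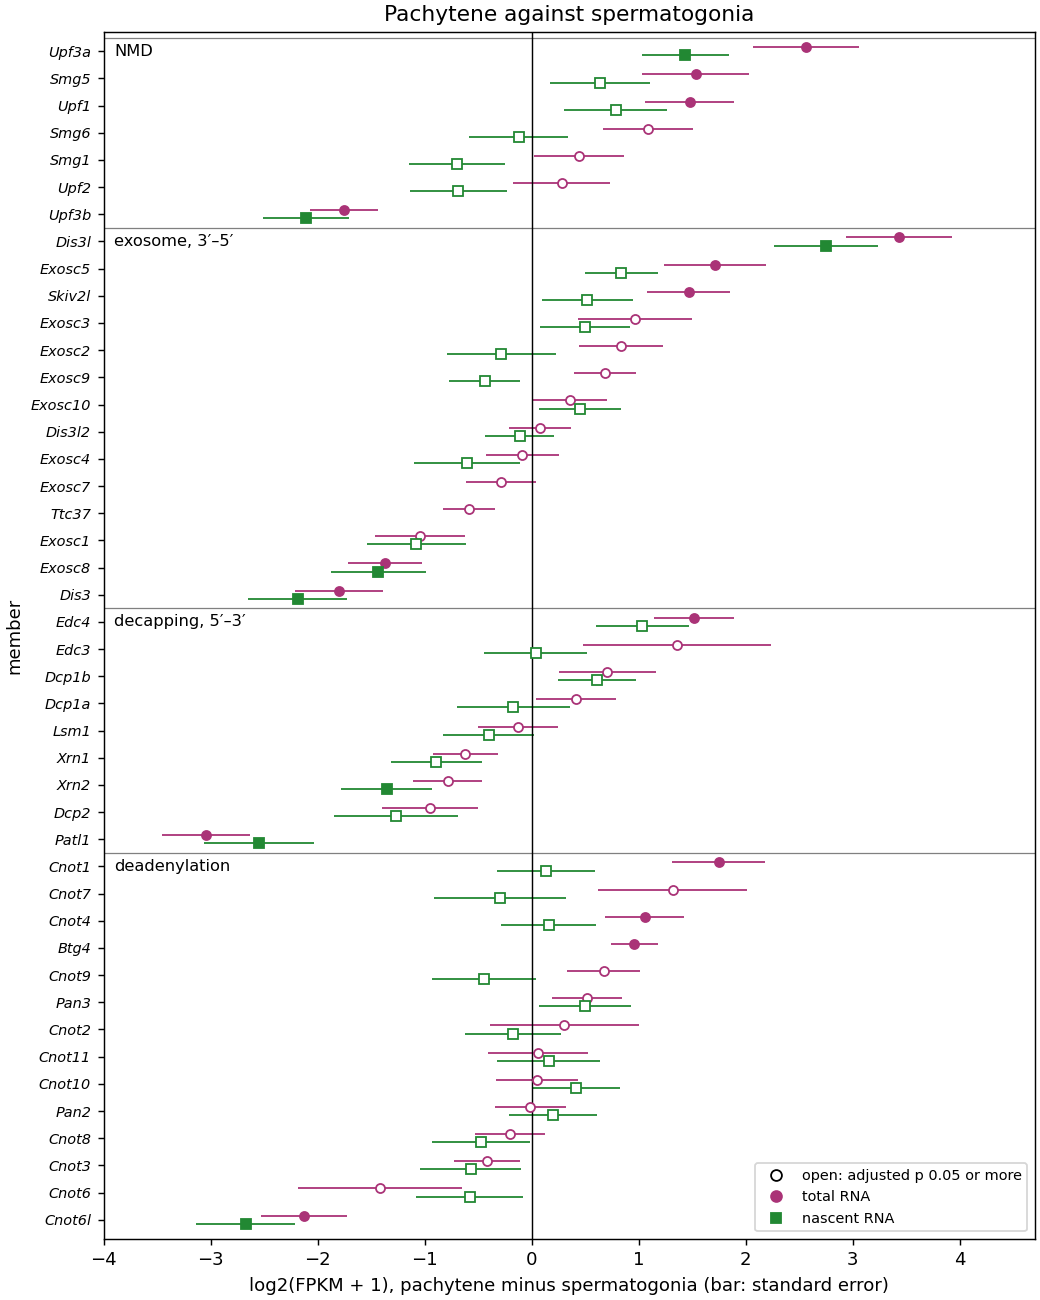
Difference between pachytene and spermatogonia on the log2(FPKM + 1) scale for each member, in total RNA (circles) and nascent RNA (squares), with standard errors; filled symbols passed adjusted p under 0.05 in limma. Dis3l and Upf3a lie furthest to the right and Patl1, Cnot6l, Dis3, Upf3b and Exosc8 to the left in both assays, and the 7 NMD members have larger estimates in total than in nascent RNA, a difference that did not pass for any of them.

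Against leptotene, pachytene showed 13 called members in total RNA, with 8 higher against a background of 22.4% and 5 lower against 17.7%. The higher ones were Dis3l, Upf3a, Exosc5, Smg5, Skiv2l, Edc4, Cnot1 and Btg4, and the lower ones were Patl1, Cnot6l, Dis3, Exosc8 and Upf3b. Btg4 passed the level filter through pachytene alone, so that a difference was bound to appear there. These 13 are all among the 15 called against spermatogonia; both comparisons share the pachytene libraries. Over the 9 libraries 20 passed, 14 higher against a background of 29.9% and 6 lower against 27.6%. With the animal as a replicate block 7 passed, 6 of the 13 and Cnot7, with 3 higher against 13.5% and 4 lower against 9.42%. In that fit, in either assay, the difference rests on the 1 animal that both stages share. Its libraries are leptotene library 3 and pachytene libraries 2 and 4. Without leptotene library 2, 15 were higher, against 28.8%, and 6 lower, against 24.7%, and without leptotene library 1 the count was 0 in limma, with 8 members at an unadjusted p under 0.05 and 0.0421% of all genes called higher and 0.00526% lower in that fit. In nascent RNA 7 passed, 2 higher against a background of 15.8% and 5 lower against 15.4%, which were the same genes as against spermatogonia apart from Xrn2. Over the 9 libraries 14 passed in nascent RNA, 5 higher against 22.3% and 9 lower against 29.8%. With the animal as a replicate block 1 was higher, against 12.4%, and 3 lower, against 7.22%. Without leptotene library 2, 4 were higher, against 17.7%, and 8 lower, against 22%, and without leptotene library 1, 0 were higher, against 6.39%, and 2 lower, against 3.27%. ERCC spike-in scaling gave 18 higher members, against 39.3%, and 2 lower, against 10.2%, in total RNA, as the median of all genes moved from -0.07 to 0.62. In nascent RNA it moved from -0.27 to -1.08, and limma called 0 members, with 2 at an unadjusted p under 0.05. Median centring gave 5 higher, against 18.8%, and 5 lower, against 13.4%, in nascent RNA, and the 5S-corrected table, with a median of 0.87 over all genes, gave 15 higher, against 31.1%, and 1 lower, against 1.72%.

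From spermatogonia to leptotene no member passed limma's test with all libraries. In total RNA the count was 0 where 0.286% of all genes rose and 9.52% fell, with 2 members, Exosc1 and Smg1, at an unadjusted p under 0.05. In nascent RNA it was 0 where 0.696% rose and 9.9% fell, with 0 members at an unadjusted p under 0.05. Over the 9 libraries, 4 members passed in total RNA: 3 rose, against a background of 7.69%, and 1 fell, against 18.7%. Patl1 rose by 0.93 ± 0.21 (SE; adjusted p = 0.027), Smg1 by 1.22 ± 0.29 (SE; adjusted p = 0.0313) and Cnot7 by 1.45 ± 0.29 (SE; adjusted p = 0.0205), while Ttc37 fell, at -0.66 ± 0.16 (SE; adjusted p = 0.0319). In nascent RNA 1 rose, against 13.4%, and 0 fell, against 23.1%, and that 1 was Patl1 at 1.18 ± 0.32 (SE; adjusted p = 0.0293). The Cnot7 result rests on spermatogonia libraries 2 and 3, at 2.08 and 2.53 FPKM, since library 1 stood at 10.2, the level of leptotene library 1. In the single preleptotene library, Patl1 was at 25.3 FPKM in total and 32.1 in nascent RNA, beside 27.8 and 26.6, and 31.7 and 33.7, in leptotene libraries 1 and 4. No test was made with 1 library.

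The difference between the assays was tested directly, as the change in total RNA minus the change in nascent RNA. No member passed in limma's interaction fit over 15914 genes. From spermatogonia to pachytene the count was 0 of 41, where 0% of all genes were called higher and 0.0126% lower, with Cnot1 and Exosc9 at an unadjusted p under 0.05. From leptotene to pachytene it was 0, against 0.00628% and 0.0189%, with 4 members at an unadjusted p under 0.05, and from spermatogonia to leptotene it was 0, against 0% and 0%, with 1. The median of this difference between pachytene and spermatogonia was 0.97 for NMD, 0.50 for the exosome, 0.32 for decapping and 0.27 for deadenylation, beside 0.21 over all genes. All 7 NMD members had a positive estimate, of 0.36 to 1.21, and none of the 7 passed. Cnot1, at 1.62 ± 0.61 (SE; adjusted p = 0.438), and Exosc9, at 1.13 ± 0.42 (SE; adjusted p = 0.43), had the lowest unadjusted p. Over the 9 libraries 1 member passed, Exosc5 from leptotene to pachytene, at 2.15 ± 0.38 (SE; adjusted p = 0.0256), against a background of 1.87% higher and 0.759% lower; from spermatogonia to pachytene 0 passed, against 0.881% and 0.605%, with 9 members at an unadjusted p under 0.05. The labels give the assays different animal numbers, but libraries of the same title deviated from their stage together, with correlations across genes of 0.12 to 0.79 for the 11 titles outside preleptotene. A fit with the assays paired by title, added after the data were seen, called 0 members in limma, where 0.0189% of all genes were higher and 0.0691% lower from spermatogonia to pachytene, with 5 members at an unadjusted p under 0.05, and 0.0189% and 0.0314% from leptotene to pachytene, with 6. The same pairing restricted to the 9 libraries also called 0, with Exosc5 from leptotene to pachytene at 2.15 ± 0.40 (SE; adjusted p = 0.0584), against a background of 1.12% and 0.457%.

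The order of levels can be read from the pachytene medians in total RNA. Among deadenylation factors Cnot9 and Cnot1 were highest, at 34.4 and 30.6 FPKM, with ranges of 32.7 to 36.2 and 24.2 to 37.0 that overlap. Edc4 led the decapping factors, at 28.2, and Edc3 followed, at 12.6. Dis3l led the exosome, at 41.5, ahead of Skiv2l, at 22.4, and Upf1 led NMD, at 41.2, ahead of Smg6, at 21.7, Smg5, at 20.2, and Upf3a, at 19.5. The ranges of Dis3l and Skiv2l did not overlap, and those of Upf1, Smg6 and Smg5 did. In spermatogonia the order of medians differed: Cnot9 was again highest in its system, at a median of 21.1, but Patl1 and Edc3 led decapping, at 13.6 and 13.1, Exosc1 and Dis3 led the exosome, at 8.08 and 7.72, and Upf1 and Upf2 led NMD, at 12.8 and 12.1. The ranges within each of these pairs overlapped. Exosc1 was at 1.47 and 8.08 FPKM in spermatogonia libraries 1 and 2 of the same animal, and Upf2 ranged from 5.53 to 14.3.

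Another 59 genes of the same pathways, not members, were looked up, and 57 of them were tested in total RNA. From spermatogonia to pachytene 10 rose, against 23.1% of all genes, and 12 fell, against 29.7%. Around deadenylation 1 rose and 6 fell of 15: the antiproliferative CCR4-NOT adaptors Btg2, at -4.59 ± 0.52 (SE; adjusted p = 0.000872), and Btg3, at -3.30 ± 0.42 (SE; adjusted p = 0.00101), the poly(A) nuclease gene Parn, at -2.36 ± 0.34 (SE; adjusted p = 0.00122), and the microRNA effector gene Tnrc6b, at -2.28 ± 0.63 (SE; adjusted p = 0.0144), were among those that fell. Around decapping 4 rose and 1 fell of 15, with Lsm2, a ring subunit, at 3.50 ± 0.83 (SE; adjusted p = 0.00744). Total RNA of Lsm2 was 0.158 to 0.779 FPKM in spermatogonia and 8.32 to 19.2 in pachytene. In leptotene libraries 1 to 4 it was split, at 10.2, 12.1, 0.799 and 0.803. Nascent Lsm2 overlapped, at 0.793 to 3.79 FPKM in spermatogonia and 0.931 to 6.95 in pachytene. Around the exosome 1 rose and 2 fell of 12. Around NMD 4 rose and 3 fell of 15, with Smg9, a regulator of SMG1, at 2.55 ± 0.63 (SE; adjusted p = 0.00879) and the release factor gene Gspt2 at -2.92 ± 0.43 (SE; adjusted p = 0.00125). In nascent RNA 1 of 56 rose, Smg9, against 15.6%, and 15 fell, against 27.9%. Between leptotene and pachytene 5 rose, against 22.4%, and 9 fell, against 17.7%, in total RNA, and 2 rose, against 15.8%, and 11 fell, against 15.4%, in nascent RNA. Between spermatogonia and leptotene Lsm4 and Btg2 passed in total RNA, where 0.286% of all genes rose and 9.52% fell, and 0 passed in nascent RNA. Total RNA of Lsm4, a ring subunit, was 0.695 and 14.2 FPKM in spermatogonia libraries 1 and 2 of the same animal, 0.533 in library 3 and 2.99, 29.3, 17.4 and 12.7 in the 4 leptotene libraries, so its stages overlapped. In pachytene, where Lsm4 was among the 4 decapping genes that rose from spermatogonia, it was at 0.329, 0.8285, 30.9 and 47.9 FPKM.

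Levels of some members differed between libraries of the same animal and stage. Among genes at 5 FPKM or more, 9.68% to 11.2% differed by over 3-fold in such pairs of total RNA outside leptotene and 49.8% in the pair of leptotene libraries 1 and 2. In spermatogonia libraries 1 and 2, 3 of 25 members at that level did so, beside 9.68% of all genes: Cnot7, Lsm1 and Exosc1. In pachytene libraries 1 and 3, 5 of 25 did, beside 11.2%: Cnot2, Cnot6, Cnot7, Dcp1a and Dcp1b. In pachytene libraries 2 and 4, 4 of 27 did, beside 10.2%: Cnot2, Cnot6, Dcp1a and Exosc1. In leptotene libraries 1 and 2, 9 of 33 did, beside the 49.8%. In the nascent pairs outside leptotene the share of all genes was 5.42% to 13.5%. The only member there was Lsm1, 1 of 23 in pachytene libraries 2 and 4.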

How the data were processed

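Total and nascent RNA tables hold FPKM per gene, deposited by the authors; the submitters' processing notes name STAR 2.5.2a, StringTie and mm10. The annotation and use of strand are not given in the sources used here, so 18 members whose exons overlap another gene are uncertain. A 5S-corrected table holds signal values, deposited by the authors, equal to nascent FPKM times a constant per library of 0.441 to 5.08. Spike-ins were added after RNA extraction per the labels, and only total RNA was depleted of ribosomal RNA.

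Members were tested on log2(FPKM + 1), which understates changes of low genes, among genes that reached 1 FPKM in 2 or more libraries. Repeat libraries of an animal within a stage were averaged, and the animal was the replicate. All stages entered a limma 3.58.1 fit (R 4.3.3, eBayes with trend, two-sided, Benjamini-Hochberg over all genes). The script was tested on simulated data. The deviations of libraries of the same animal in different stages correlated at 0.03 to 0.09 in total and -0.16 to 0.04 in nascent RNA. Loci come from GENCODE M21. Values per library are given for every called member, for the 2 most abundant uncalled members of each system and for paralogue pairs. The members and lists were chosen with earlier results of these data known. Depth could not be recovered from the FPKM values and is unknown, so no counting interval is given. Figures used Python 3.11.15 and matplotlib 3.10.9.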

Additional observations from a re-analysis of the deposited data

Results flagged for a closer look

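In 22 cases 1 library stood apart from the other 3 of its stage by Dixon's test at 95%, among 159 groups of 4 libraries with a level of at least 1 FPKM; chance flags about 1 in 20 groups. Leptotene library 2 accounted for 11 of them. In total RNA it was high in Cnot1 (44.7 FPKM), Dcp1b (8.36), Edc4 (25.1), Exosc3 (14.1), Dis3l (25.4) and Upf3a (18.5), and in nascent RNA it was high in Edc4 (13.2), Exosc3 (5.14) and Dis3l (5.85) and low in Cnot8 (1.56) and Dis3 (0.802). This library carried the pachytene markers described above. Leptotene library 3 was low in total RNA of Cnot6 (1.73) and Edc3 (3.11), and leptotene library 1 was high in Lsm1 (8.21). Among pachytene total RNA libraries, library 3 was high in Dcp1b (10.2), library 1 was high in Exosc5 (15.8) and library 2 was low in Upf2 (7.08). In nascent pachytene RNA, library 4, with the smallest spike-in share, was high in Cnot1 (27.6), Cnot4 (8.67) and Exosc5 (3.62). Library 3, with the largest, was high in Patl1 (4.23) and low in Exosc2 (0.736). That library also held more meiotic entry and leptotene markers than the other pachytene libraries, and their part in its levels was not tested.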

How the results depend on the processing

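Counts of called members moved with the libraries used and with scaling, and no called difference changed sign under any alternative. Over the 9 libraries, calls rose to 20 for pachytene against leptotene and 4 for leptotene against spermatogonia in total RNA, to 14 and 1 in nascent RNA, and to 1 in total over nascent RNA for pachytene against leptotene (Exosc5). Spike-in scaling gave 20 for pachytene against leptotene in total RNA and 0 for pachytene against either stage in nascent RNA. The 5S-corrected table gave 16 for pachytene against leptotene in nascent RNA, of which 15 rose. The animal as a replicate block gave 7 and 7 calls in total RNA and 4 and 3 in nascent RNA, for pachytene against leptotene and against spermatogonia. That fit links pachytene to leptotene and spermatogonia through leptotene library 3 alone. Leaving out 1 library gave 0 to 1 calls for leptotene against spermatogonia, 0 to 21 for pachytene against leptotene and 3 to 21 for pachytene against spermatogonia in total RNA, and 2 to 12 and 5 to 10 for pachytene in nascent RNA. Of 43 single-gene calls, 43 remained with a pseudocount of 0.1, 43 over the 9 libraries, 41 with median-centred libraries, 38 without a level filter, 24 with spike-in scaling, 18 with the block and 10 without leptotene library 1. Leaving leptotene library 2 out of both assays, an alternative chosen after seeing the data, left 0 members called in total over nascent RNA. Pairing the assays by library title, also added after seeing the data, likewise gave 0 in each comparison, with all libraries and over the 9. Precision is limited by 2 or 3 animals per stage.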
